A study of Homo sapiens with 15 samples.

Results

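The genes described here encode the NADPH oxidases, the dual oxidases with their partner subunits, and myeloperoxidase. The 9 genes were *DUOX1*, *DUOX2*, *DUOXA1*, *DUOXA2*, *NOX1*, *NOX4*, *CYBA*, *RAC1* and *MPO*. Every array probe annotated with a RefSeq transcript of one of them was taken, which gave 12 of the 42405 probes on the array, and all 9 genes had at least 1 probe. The genes were picked with the difference between the groups below already known, so their differences are given as descriptions without a test.

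NADPH oxidases are membrane enzymes that pass electrons from NADPH across a membrane to oxygen and so make superoxide or hydrogen peroxide. Dual oxidases release hydrogen peroxide at the surface of airway, gut and thyroid epithelia, and each needs a maturation factor to leave the endoplasmic reticulum. Myeloperoxidase uses hydrogen peroxide to make hypochlorous acid and is best known from the granules of neutrophils.

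The cells were PE/CA-PJ41, an immortalised line from a human oral squamous cell carcinoma. The group labelled CYGB+ carried the human cytoglobin cDNA in the plasmid pCMV6-Neo, stably integrated, with clones picked under G418. The group labelled NCE (non-cytoglobin expressing) carried the empty vector according to the labels, whereas parts of the study call its controls un-transfected. The study's methods name 1 clone for the arrays, so effects of cytoglobin and of that clone cannot be told apart. Each group had 3 biological replicates from separate RNA extractions, with 3 arrays for each NCE replicate and 2 arrays for each CYGB+ replicate, 15 arrays in all. The labels name no drug treatment for either group.

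Between 48.9 and 57.2% of probes were well above background on an array, the scanner software's own test of a spot against its local background. Of the 15 arrays, 8 lay on slide 1 and 7 on slide 2. Slide 1 held only NCE arrays, and slide 2 held all 6 CYGB+ arrays with 1 array of NCE replicate 1, so slide and group were nearly the same split. The 5 arrays least like the rest (median correlation with the other arrays 0.954 to 0.981) were array 1 of CYGB+ replicate 1, array 2 of CYGB+ replicate 3, array 1 of NCE replicates 1 and 2, and array 2 of NCE replicate 3. The *CYGB* probe itself did not separate the groups, with a normalised log2 signal of 11.99 ± 0.15 in NCE and 11.93 ± 0.53 in CYGB+ (SD, n = 3 each, limma adjusted p = 0.906). It was well above background on all 9 NCE and 6 CYGB+ arrays, although the study describes the parent line as not expressing cytoglobin. Apart from the arrays, the study reports PCR of the integrated transgene, qPCR and an in-cell ELISA for its clones. It describes the clone named for the arrays, LST421, as a high expresser of cytoglobin. Where this probe lies in the transcript was not given in the sources used here, and a probe outside the cDNA of the plasmid would not check the labels. The green values thus show no higher *CYGB* signal in CYGB+, and why was not tested. All 8 squamous epithelial markers (*KRT5*, *KRT14*, *KRT6A*, *TP63*, *SFN*, *DSG3*, *CDH1* and *EPCAM*) were well above background on every array. Their summed log2 level was 15.97 to 16.15 in NCE and 16.02 to 16.29 in CYGB+. The sum is weighted to the brightest marker, *SFN* (15.01 in NCE and 15.15 in CYGB+). Single markers differed by −0.47 (*EPCAM*, limma adjusted p = 0.0726) to 0.76 (*KRT14*, limma adjusted p = 0.061). The keratin *KRT6A* was the 1 marker that passed, at −0.46 (limma adjusted p = 0.0456), and with slide as a term it differed by −0.05 (adjusted p = 0.972).

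Of the 9 genes, 5 were measured, meaning that a probe was well above background on every array of at least 1 group. *CYBA* and *DUOX1* had lower and *MPO* higher signals in CYGB+, with no overlap of single arrays. The share of all probes without such overlap of arrays was not computed. For replicates it was 35.0% of probes tested, and arrays of one replicate are repeats of the same RNA. For *DUOXA1* (−0.54) and *RAC1* (0.28) single arrays of the groups overlapped, and neither passed the threshold used over all probes. Levels below are quantile-normalised log2 green-channel signals, and a level of one probe cannot be set against that of another. Differences in total RNA per cell cannot be told apart from differences in the transcript in such data.

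**Figure D1:**
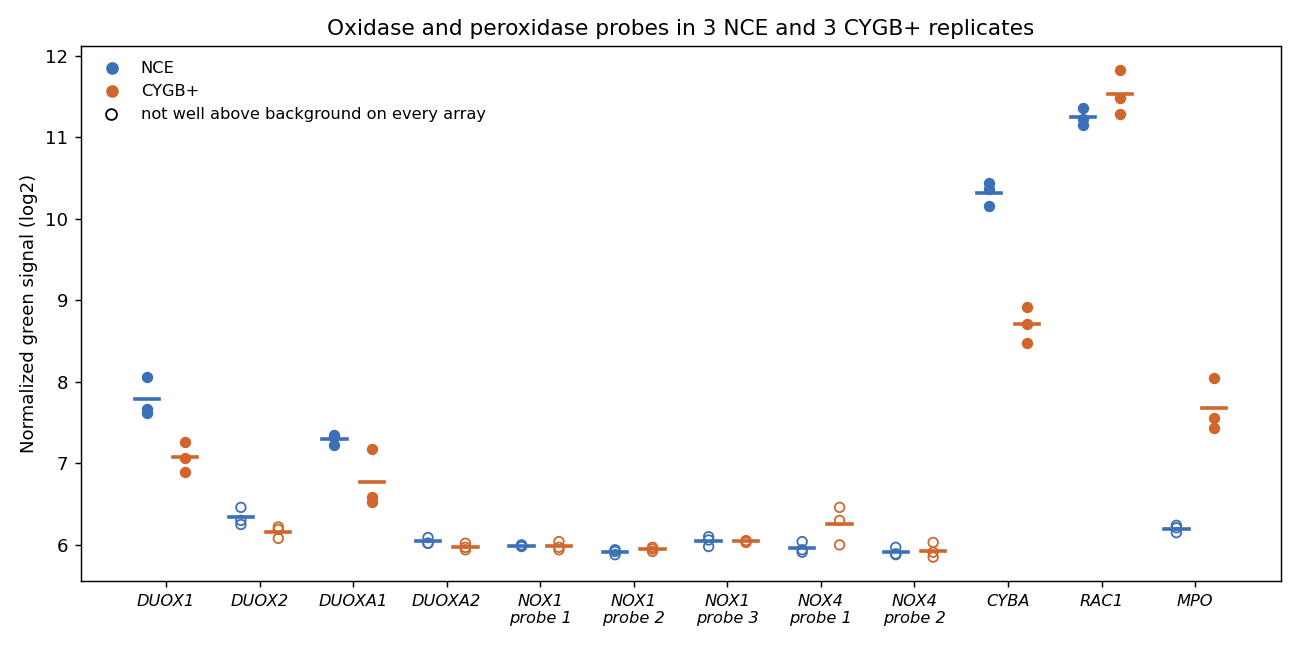
Normalised log2 green signal of each of the 12 probes in the 3 NCE and 3 CYGB+ replicates, with a bar at each group mean; open circles mark groups in which the probe was not well above background on every array. The CYBA points lie between 10.15 and 10.44 in NCE and between 8.48 and 8.92 in CYGB+, and the MPO points between 6.15 and 6.24 in NCE and between 7.43 and 8.05 in CYGB+. Heights should not be compared between probes.

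*CYBA* encodes p22phox, the membrane partner that stabilises NOX1 to NOX4. Its level was 10.44, 10.15 and 10.36 in NCE replicates 1, 2 and 3. In CYGB+ replicates 1, 2 and 3 it was 8.48, 8.92 and 8.71. Every CYGB+ array (8.13 to 8.96) was below every NCE array (9.99 to 10.60). The mean difference was −1.61 ± 0.14 on the log2 scale (SE), a signal 3.06-fold lower in CYGB+. The raw green intensity behind it had a median of 1350 in NCE and 364 in CYGB+ arrays, far from background in both.

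*DUOX1* encodes a dual oxidase of epithelial surfaces. Its level was 8.06, 7.62 and 7.67 in NCE replicates 1, 2 and 3, and 6.89, 7.26 and 7.07 in the CYGB+ replicates in the same order. All 9 NCE and 6 CYGB+ arrays were well above background, and no array of one group reached the other. The difference was −0.71 ± 0.16 (SE), or 1.64-fold lower in CYGB+. *DUOX1* is a dim probe, with raw medians of 206 and 94, and its size moved with the handling of background. With the scanner software's own background-subtracted signal the difference was −1.30 ± 0.21 under quantile and −1.36 ± 0.24 under 75th percentile scaling (SE).

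*DUOXA1* encodes the maturation factor that pairs with DUOX1. Its level was 7.32, 7.23 and 7.35 in NCE replicates 1, 2 and 3. In CYGB+ it was 7.18, 6.53 and 6.59. The replicates did not overlap, but CYGB+ replicate 1 was close to NCE because its array 1 read 7.67, above all 9 NCE arrays, whereas the other 5 CYGB+ arrays read 6.42 to 6.69. The mean difference was −0.54 ± 0.18 (SE), or 1.45-fold lower, and −1.04 ± 0.23 (SE) with the software's subtracted signal under 75th percentile scaling. That array was the one least like the rest, and without it the difference was −0.70 ± 0.09 (SE).

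*DUOX2* and its maturation factor *DUOXA2* form a second pair beside the first on chromosome 15. *DUOX2* was well above background on 7 of 9 NCE and 2 of 6 CYGB+ arrays. Its level was 6.25, 6.30 and 6.46 in NCE and 6.22, 6.08 and 6.19 in CYGB+. The replicates did not overlap but single arrays of the groups did. Most CYGB+ arrays did not detect the probe, so no difference is read from these values. *DUOXA2* was not well above background on any of the 15 arrays, and its replicates did not overlap either. Over the probes tested the share without overlap of replicates was 35.0%.

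Both pairs start head to head, so that one short stretch lies between the starts of an oxidase gene and its maturation factor. The stretches are shown because both genes of one pair, *DUOX1* and *DUOXA1*, were measured, whereas neither gene of the other pair reached that filter. Each is read 5′ to 3′ on the plus strand of GRCh38.p14 (RefSeq), at chr15:45129880-45129993 for *DUOXA1* and *DUOX1* and at chr15:45114173-45114325 for *DUOX2* and *DUOXA2*. Capitals mark GC boxes (GGGCGG, here in reverse complement as CCGCCC) and a TATA box (TATAAA).
DUOXA1/DUOX1: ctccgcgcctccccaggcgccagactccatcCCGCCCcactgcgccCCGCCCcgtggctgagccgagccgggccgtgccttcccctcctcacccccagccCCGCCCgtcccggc
DUOX2/DUOXA2: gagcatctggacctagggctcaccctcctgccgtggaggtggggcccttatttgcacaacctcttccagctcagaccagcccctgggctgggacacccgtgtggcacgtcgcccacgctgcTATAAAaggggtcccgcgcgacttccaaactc
The stretch of 114 bases between *DUOXA1* and *DUOX1* was 80.7% G and C with 13 CG dinucleotides, against medians of 60.5% and 5 over windows of that length in all RefSeq promoters. It held 3 GC boxes, a motif found on either strand in 33.3% of those windows, and no TATA box. The stretch of 153 bases between *DUOX2* and *DUOXA2* was 63.4% G and C with 8 CG dinucleotides (medians 59.5% and 7). It held 1 TATA box, found in 6.8% of promoter windows of that length, and no GC box (37.0%). A head-to-head start this close was found for 9.9% of the 27305 genes in the table. A match of letters is a description and no evidence of binding.

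*NOX1* and *NOX4* encode catalytic subunits that need p22phox. None of the 3 *NOX1* probes was well above background on any array. One *NOX4* probe was likewise below it throughout. The other *NOX4* probe was well above background on no NCE array and on 2 of 6 CYGB+ arrays, array 1 of replicate 1 (7.12) and array 2 of replicate 3 (6.70). Both belong to the 5 arrays that stood apart, and the second array of the same RNA did not detect it in either case. With these 2 arrays included the mean level of this probe was 5.96 in NCE and 6.25 in CYGB+, and the replicates of the groups overlapped. Both means include arrays on which the probe was not well above background, so no size of difference is read from them. Without these 2 arrays no array measured the gene.

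*RAC1* encodes the small GTPase that activates NOX1 and the phagocyte oxidase and also controls the actin skeleton. Its level was 11.22, 11.15 and 11.36 in NCE replicates 1, 2 and 3. In CYGB+ it was 11.82, 11.28 and 11.48, so the groups overlapped. The difference was 0.28 ± 0.15 (SE), or 1.22-fold. It was 0.14 without CYGB+ replicate 1, whose array 1 (12.14) stood furthest above the rest.

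*MPO* had a level of 6.15, 6.21 and 6.24 in NCE replicates 1, 2 and 3. In CYGB+ the values were 7.43, 7.55 and 8.05. Every CYGB+ array (7.30 to 8.06) was above every NCE array (6.08 to 6.28). The probe was well above background on all 6 CYGB+ but only 3 of 9 NCE arrays, so it passed the filter through the group in which it was high. The difference was 1.47 ± 0.17 (SE), or 2.77-fold higher in CYGB+. The NCE raw intensities on slide 1 were 44.5 to 59.2, against a local background of 24 to 29. On slide 2 the single NCE array read 38.8 against a background of 40. The size of the difference moved with how background is removed. It was 1.98 ± 0.19 with none removed and 3.72 ± 0.31 with the software's subtracted signal (12.8- to 13.2-fold over both scalings). The raw intensity in CYGB+ arrays was 114 to 320.

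**Figure D2:**
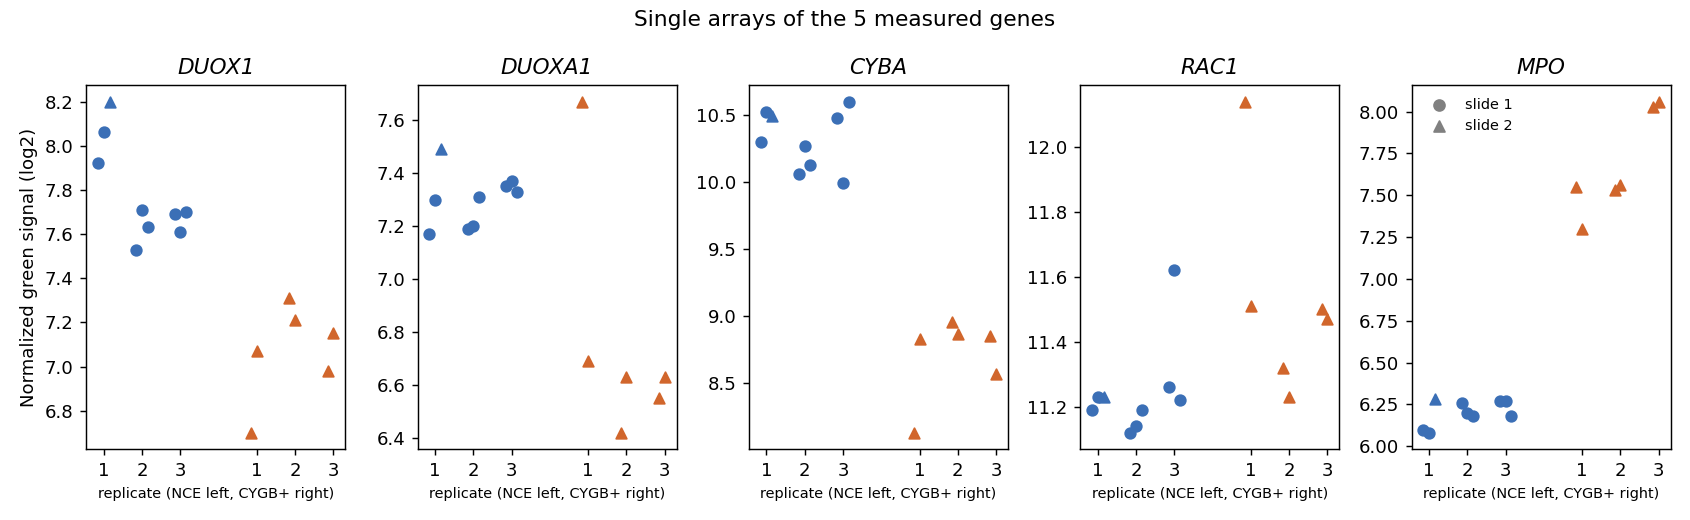
Normalised log2 green signal of single arrays for the 5 measured genes, by biological replicate (NCE left, CYGB+ right), with circles for slide 1 and triangles for slide 2; each panel has its own scale. The single NCE array on slide 2 read 10.49 for CYBA, within the NCE arrays of slide 1 (9.99 to 10.60). It read 6.28 for MPO, 8.20 for DUOX1 and 7.49 for DUOXA1. The highest NCE arrays of slide 1 read 6.27, 8.06 and 7.37 for these genes. The CYGB+ arrays lay apart from all NCE arrays for CYBA, DUOX1 and MPO. For DUOXA1 and RAC1 the arrays of both groups overlap.

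Of the measured genes, 3 (*CYBA*, *DUOX1* and *MPO*) passed a limma adjusted p of 0.05, beside 12.0% of the 19791 probes tested (6.09% higher and 5.91% lower in CYGB+). Of these 3, *DUOX1* had the highest adjusted p (0.0284). The count was 2 by the methods' t-test, 2 without any 1 NCE replicate and 2 without CYGB+ replicate 3. In 4 of the 5 the replicates did not overlap, beside 35.0% of probes tested (18.0% higher and 17.0% lower in CYGB+). Nothing is read from these counts, because the genes were picked on this contrast.

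The slides were compared through NCE replicate 1, the only replicate measured on both. On slide 2 its array read 10.49 for *CYBA*, against a mean of 10.41 on slide 1. *DUOX1* read 8.20 against 7.99, *DUOXA1* 7.49 against 7.24, *RAC1* 11.23 against 11.21 and *MPO* 6.28 against 6.09. Local background was 24 to 29 on slide 1 and 37 to 43 on slide 2. Within slide 2, where 1 NCE array met 6 CYGB+ arrays, the differences were −1.79 for *CYBA*, −1.13 for *DUOX1*, −0.73 for *DUOXA1*, 0.30 for *RAC1* and 1.39 for *MPO*. They had the same signs as over all arrays, and *DUOX1* was the gene whose difference grew by over 1.5 times. With slide as a term it was −1.05 ± 0.20 (SE).

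**Figure D3:**
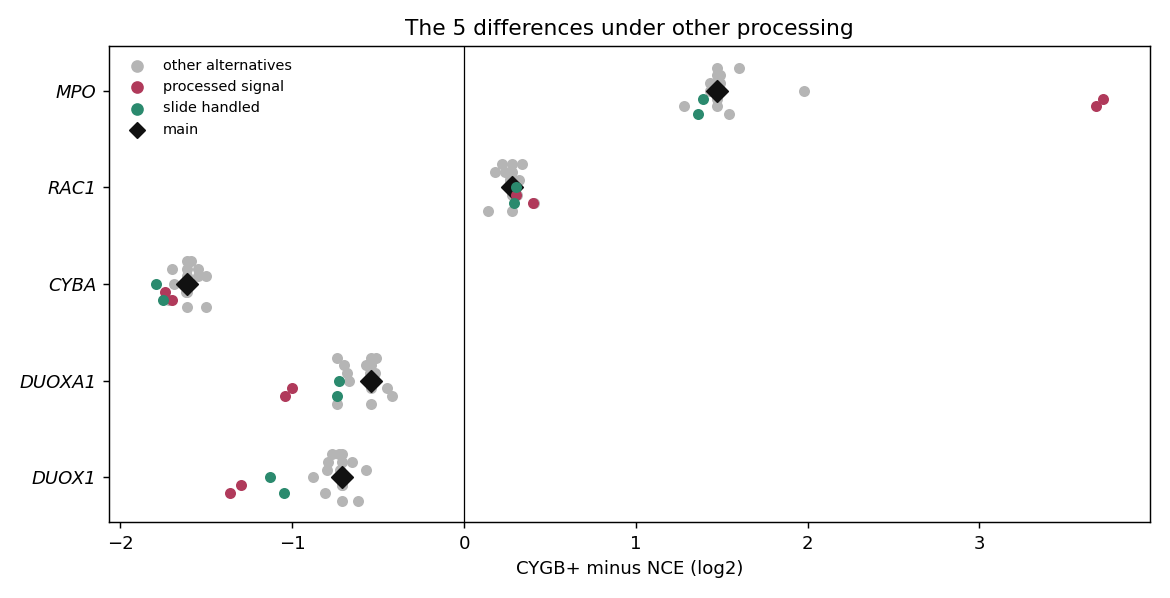
The log2 difference (CYGB+ minus NCE) of the 5 measured genes as reported (diamond) and under each alternative processing (circles), coloured for the software's processed signal and for fits that handle slide. No gene crosses 0; CYBA stays between −1.79 and −1.50, whereas MPO runs from 1.28 to 3.72.

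The rest of the oxidase pathway was read from 30 genes that are not among the 9, of which 19 were measured. These lists were also chosen with earlier results of these data known. Their counts and adjusted p-values are thus descriptions, and nothing is read from them about the pathway. In CYGB+, 2 were higher and 2 lower at a limma adjusted p of 0.05. Of the 19791 probes tested, 6.09% were higher and 5.91% lower. The median difference was 0.05, beside 0.01 over all probes tested. *CYBB*, the catalytic subunit of the phagocyte oxidase, *NOX3*, *NOX5*, the eosinophil and lactoperoxidase genes *EPX* and *LPO*, and the channel *AQP9* were well above background on no array.

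**Figure D4:**
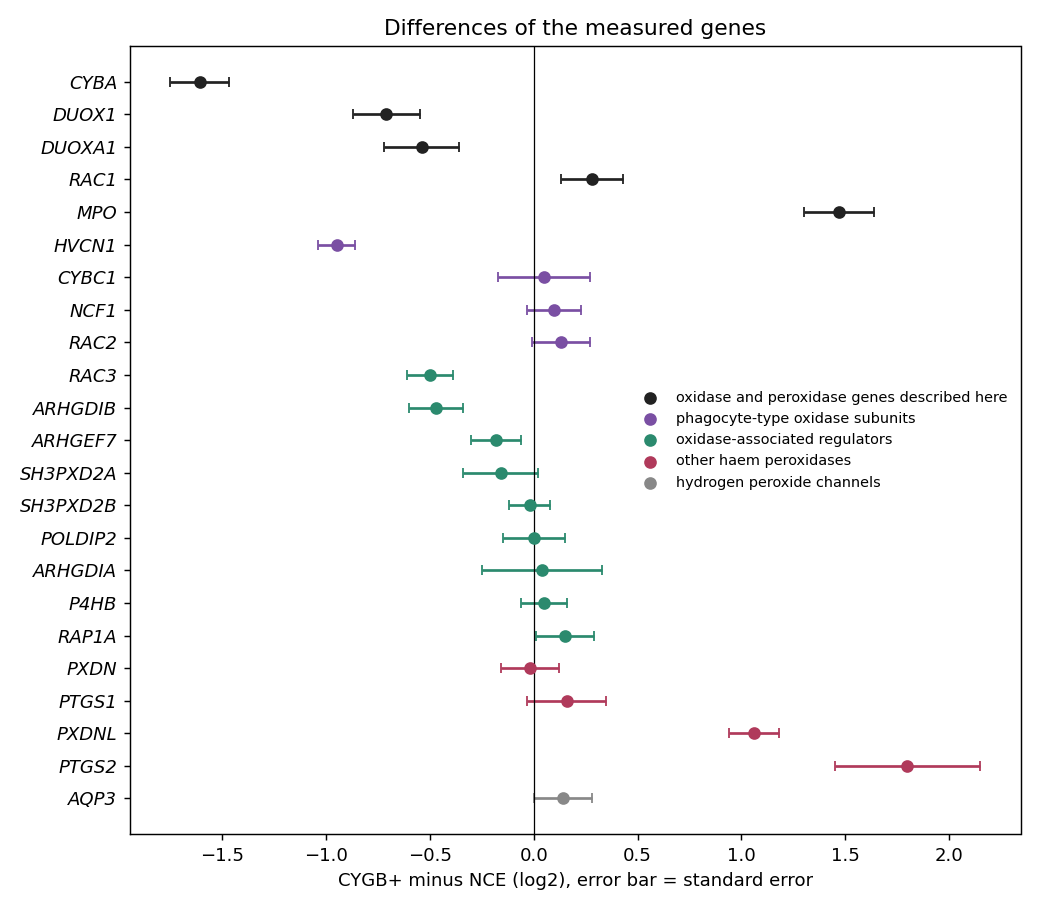
Log2 difference (CYGB+ minus NCE) with its standard error for the 5 measured oxidase and peroxidase genes and the measured genes of the other lists, all but 1 of the 19, coloured by list. CYBA (−1.61) and HVCN1 (−0.95) lie furthest to the left, and PTGS2 (1.80), MPO (1.47) and PXDNL (1.06) furthest to the right.

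Among the phagocyte-type subunits 5 of 7 genes were measured, and 1 fell. This was *HVCN1*, the proton channel that balances the charge moved by the oxidase. Its level was 7.53 in NCE and 6.59 in CYGB+, a difference of −0.95 ± 0.09 (SE, limma adjusted p = 0.00394). With the software's subtracted signal it was −1.74 and −1.79 under both scalings. A second *HVCN1* probe read lower by 0.66. It was well above background on 9 of 9 NCE but 5 of 6 CYGB+ arrays. It thus passed the filter through the group in which it was high, and no test of it is read. The cytosolic organiser gene *NCF1* did not pass by its brightest probe (0.10, limma adjusted p = 0.644), which may also read near-identical copies of the gene. Its other probes were well above background on at most 2 of 9 NCE and 1 of 6 CYGB+ arrays each.

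All 9 regulators were measured. *RAC3*, a relative of *RAC1*, was the 1 that passed, at 9.10 in NCE and 8.61 in CYGB+ (−0.50 ± 0.11, SE, limma adjusted p = 0.031). With slide as a term the difference was −0.52 (limma adjusted p = 0.18), and without any 1 NCE replicate it was −0.44 to −0.57 (adjusted p 0.0733 to 0.12). None of the 4 other catalytic subunits and organisers (*NOX3*, *NOX5*, *NOXO1* and *NOXA1*) was measured. Of the hydrogen peroxide channels *AQP3* was measured, at 7.21 in NCE and 7.35 in CYGB+.

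Of 7 other haem peroxidases, 4 were measured and 2 rose. *PTGS2*, the inducible cyclooxygenase of prostaglandin synthesis, rose from 7.95 to 9.75 (1.80 ± 0.35, SE, limma adjusted p = 0.0213). *PXDNL*, a relative of peroxidasin, rose from 8.88 to 9.94 (1.06 ± 0.12, SE, limma adjusted p = 0.00433). The *PTGS2* call was lost without an NCE replicate, with differences of 1.53 to 2.00 (adjusted p 0.0548 to 0.0666), and the *PXDNL* call with slide as a term (0.83, adjusted p = 0.0839).

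The myeloid markers were read because myeloperoxidase is a granule protein of such cells. Of 9 marker genes with a probe, *CD14* and *CSF3R* were measured and neither passed (limma adjusted p = 0.15 and 0.771). Their summed log2 level was 8.50 to 8.87 in NCE and 8.17 to 8.58 in CYGB+. In CYGB+ the granule genes *ELANE*, *CTSG*, *PRTN3* and *AZU1* were well above background on 0 of 6 arrays. In NCE the first 3 of these were well above background on 1 of 9 arrays each. The leukocyte integrin gene *ITGAM* was well above background on 2 of 9 NCE and 3 of 6 CYGB+ arrays, with means of 6.23 and 6.41. *CD33* was on no array. Of 4 probes for the pan-leukocyte gene *PTPRC*, the most often detected was so on 3 of 9 NCE and 2 of 6 CYGB+ arrays (6.21 and 6.23), and another on 1 of 9 and 2 of 6 (6.17 and 6.22). The part of these markers in the *MPO* value was not tested.

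Genes beside the dual oxidases were read for the same contrast, since position played no part in the choice. Of the 10 nearest measured genes, 5 on each side on chromosome 15, 1 was higher and 0 lower in CYGB+, with a median of 0.10. Over all probes tested, 6.09% were higher and 5.91% lower. The 1 that passed was *EIF3J*, a translation initiation factor, at 0.57 ± 0.12 (SE, limma adjusted p = 0.0282). With slide as a term *EIF3J* differed by 0.22 (adjusted p = 0.875). Without any 1 NCE replicate it was 0.50 to 0.60 (limma adjusted p 0.067 to 0.119), and without CYGB+ replicate 3 it was 0.56 (adjusted p = 0.0682). *SQOR*, a mitochondrial sulfide oxidoreductase, had the larger difference, −0.78 ± 0.24 (SE), and did not pass (limma adjusted p = 0.073), although its replicates did not overlap (12.25, 12.76 and 13.18 in NCE, 11.76, 11.88 and 12.22 in CYGB+). With the replicate number as a block 2 of the 10 passed, *EIF3J* and *SQOR* (limma adjusted p = 0.0208 and 0.015). *SORD*, the nearest measured gene on one side, differed by 0.14 and *AFG2B*, the nearest on the other, by 0.29, and neither passed (limma adjusted p = 0.541 and 0.127).

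The probes of other genes most like *CYBA* over the 15 arrays were those of *NFS1* (Pearson r = 0.981), *CD40* (0.979), *SUMO3* (0.979), *HVCN1* (0.976) and *PCNT* (0.976). All 5 were lower in CYGB+, with log2 differences of −0.51 to −1.07. The arrays share slide, group and repeated RNA, so these values describe the 15 arrays only.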

How the data were processed

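The deposited scanner files hold intensity values, the median brightness of each spot and its local background, in arbitrary units. Per the file headers the authors extracted them with Agilent Feature Extraction 10.7.3.1. The labels give every sample as cyanine 3, the green channel, whereas the study's methods give cyanine 5 for controls, so green was used and the red channel was put in no group. The authors' deposited value table is on a log2 scale, centred per probe on the CYGB+ arrays, and it correlated with the green log2 signal at 0.90 to 0.97 for each array.

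Spots were background-corrected with normexp (offset 50) on the median signal, since the planned mean signal was not a column of the files used, and quantile-normalised over 15 arrays. Outlier spots were dropped, spots averaged per probe and arrays averaged per biological replicate. Probes well above background on every array of at least 1 group were kept (19791) and tested with limma 3.58.1 in R 4.3.3, 3 against 3, with Benjamini-Hochberg adjustment and a threshold of 0.05. Precision is limited by the number of arrays. Nothing says that the extractions came from separate cultures, so p-values measure the spread between extractions together with the noise of their arrays. The consensus correlation of arrays of one replicate was 0.186 without a slide term. Same-numbered replicates deviated together weakly (correlations 0.22, 0.23 and 0.31). The labels do not say that the numbers pair the samples. The main fit was unpaired, and a replicate block was run as an alternative. The fit was tested on simulated data. Probes took the gene of their unversioned RefSeq accession, and 25422 of 27310 matched. A gene of several probes is given by its brightest kept probe. Promoter sequence was held for 7 of the 9 genes. The values of 1 gene of the other lists are not reported here, though it is in the counts.

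The 9 genes, the other gene lists and the tests were chosen with earlier results of these data known. Named are all 9 genes, list genes that passed or were at background, neighbours of the dual oxidases and the 5 probes most like *CYBA*. Alternatives covered background, scaling, filter, replicate block, slide, replicates left out, the methods' t-test, the authors' value table and probe choice. Leaving out arrays that stood apart and an array-level fit without slide were added after seeing the data.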

Additional observations from a re-analysis of the deposited data

Results flagged for a closer look

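Of 24 groups of arrays of one probe, 4 held an array far from the others by Dixon's gap criterion. For normally distributed values that criterion marks about 1 group in 20 by chance, and the groups here share arrays. For *DUOXA1*, array 1 of CYGB+ replicate 1 read 7.67, the other CYGB+ arrays 6.42 to 6.69. For *RAC1*, the same array read 12.14 (others 11.23 to 11.51) and array 2 of NCE replicate 3 read 11.62 (others 11.12 to 11.26). For the *NOX4* probe detected on 2 arrays, array 1 of NCE replicate 2 read 6.25 (others 5.84 to 6.02), although it was not well above background there. Of these, 3 of the 4 readings come from the 2 arrays least like the rest.

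The red channel, whose contents the labels do not give, also held signal for most of these genes. The spots were well above background in red on 15 of 15 arrays for *DUOX1*, *DUOXA1*, *CYBA* and *RAC1*, on 12 for *MPO*, on 9 for *DUOX2* and on 1 for *NOX4*.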

How the results depend on the processing

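The differences of *CYBA* (−1.79 to −1.50), *DUOX1* (−1.36 to −0.57), *DUOXA1* (−1.04 to −0.42), *RAC1* (0.14 to 0.41) and *MPO* (1.28 to 3.72) had 1 sign under every alternative that could be run for them. Dim probes moved most with the handling of background. Probes called numbered 1205 higher and 1169 lower in CYGB+, and 767 were lower with normexp and 75th percentile scaling. The methods' t-test gave 444 and 357, slide as a term 273 and 440, and an array-level fit without slide 2387 and 2287. In the authors' table there were 764 and 680. Without the array that stood furthest apart there were 2077 and 2008, without all 5 such arrays 2183 and 2349, and within slide 2 there were 3 and 2. Leaving out 1 replicate gave 246 to 1280 higher and 244 to 1149 lower.

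Of the 9 genes, 3 passed, against 0 within slide 2, 1 in the authors' table (which held 3 of the 12 probes) and 2 to 4 without 1 replicate. Of the other pathway genes 4 passed, against 2 with slide as a term, 2 by the methods' t-test, 1 in the authors' table (which held 2 of the 4), 0 within slide 2 and 2 to 4 without 1 replicate. Of the neighbouring genes 1 passed, against 0 with both processed-signal settings, slide as a term, within slide 2, the methods' t-test and the authors' table, 3 in the array-level fit without slide, 2 without the array furthest apart, and 0 to 1 without 1 replicate. Within slide 2 a single NCE array stands for its group and is assumed to vary like the CYGB+ replicates. With the replicate block 1558 probes were higher and 1566 lower, and 2 neighbouring genes passed. The block changed no other count of calls by over 1.5 times. The cause of these changes was not tested.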

Other observations

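The red channel values of *CYBA* and *MPO* fell into separate ranges among the NCE arrays, and they belong to no group here. On array 1 of NCE replicates 1, 2 and 3 the red intensity of *CYBA* was 748, 505 and 1265, and that of *MPO* was 310, 256 and 461. On the other 6 NCE arrays *CYBA* lay between 1940 and 5816 and *MPO* between 81.8 and 113. On the CYGB+ arrays *CYBA* lay between 432 and 1602 and *MPO* between 198 and 711 in red.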
